A study of Mus musculus with 6 samples.

Results

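The 43 genes described here encode the cyclins, the cyclin-dependent kinases (CDKs), the CDK inhibitors and the RB and E2F proteins that drive or hold back the mammalian cell cycle, together with a few of their closest regulators. They were taken by symbol from a table of 24421 genes. All 43 symbols had a row, and all 43 were among the 12753 genes with enough reads to be tested. RNA came from sorted mouse endothelial cells, the lining cells of vessels, which had been obtained from brain and grown in medium with 20% serum. Libraries labelled Fli-1 knockout (3, numbered 1 to 3) were compared with libraries labelled WT, for wild-type (3, with the same numbers), on day 6 of a co-culture with a vascular niche that the design text does not describe further. For all 6 samples the labels give 4-OHT as the agent that induced the deletion; this form of tamoxifen switches on recombinases built to respond to it. They name neither the recombinase, nor the deleted part of the gene, nor the animals or cultures behind each library, so the p-values measure only the spread between these libraries, which may be technical. Fli1 itself encodes an ETS-family transcription factor of endothelial and blood cells.

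In a dividing cell, D-type cyclins with Cdk4 or Cdk6, and then E-type cyclins with Cdk2, phosphorylate the RB proteins and so release E2F factors, which switch on the genes of DNA replication. Cyclin A and then the B-type cyclins with Cdk1 carry the cell through S phase and into mitosis, when a later set of genes is switched on by B-Myb and FoxM1. Inhibitors of the CIP/KIP family (Cdkn1a, Cdkn1b, Cdkn1c) and of the INK4 family (Cdkn2a to Cdkn2d) oppose the kinases. Most endothelial cells of the adult body are quiescent, and they re-enter the cycle during vessel growth and in culture.

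The libraries held 17550185 to 21385951 counts. Fli1 went against the labels, at 76.8, 111 and 77.4 CPM (reads of a gene per library, brought to an equal total) in the knockout-labelled libraries against 45.3, 59.6 and 45.8 CPM in the wild-type-labelled ones. The groups did not overlap, and in the comparison of same-numbered libraries described below Fli1 rose by 0.81 ± 0.051 on the log2 scale (SE, edgeR adjusted p = 1.25e-15). A count per gene includes exons outside any deleted part, so it does not check the deletion. Whether labels or columns were exchanged was not tested; if they were, every direction given below would turn. Groups are called by their labels throughout. All 12 endothelial markers were expressed. Their summed level was 16899 to 18927 CPM under the knockout label against 16177 to 17889 CPM under the wild-type label. The libraries numbered 2 stood apart in stromal transcripts: 12 fibroblast markers summed to 1122 and 1563 CPM there and to between 159 and 522 CPM in the other 4 libraries. Of 14 blood markers 7 had 0 reads in all libraries, among them Spi1, Tyrobp and Cd48. In bulk RNA, more cells in a cycle phase and more transcript per cell cannot be told apart.

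The comparison asked which of these regulators differ with the genotype label. When the 3 libraries of one label were compared with the 3 of the other (edgeR quasi-likelihood test, false discovery rate of 0.05 over all genes tested), 0 of the 43 genes were higher and 0 were lower, beside 0% and 0.00784% of all genes tested. DESeq2 and limma-voom also called 0 of the 43. At an unadjusted p under 0.05, 13 were higher (2.64% of all genes tested were) and 1 was lower (2.15%). Same-numbered libraries deviated together, so the libraries were also compared within the 3 pairs of equal number, with the number as a block in the same test. In this paired test 19 of the 43 rose, 3 fell and 21 did not pass, while 4.81% of all genes tested rose and 4.01% fell. "Rose" and "fell" below refer to the paired test, in the libraries labelled knockout relative to those labelled wild-type. The block leaves 2 residual degrees of freedom, so these calls rest on a spread pooled across genes, and none of the 22 passed without the block.

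By role, 10 of 11 regulators of S phase and G2/M rose. Of 5 genes that act at the G1/S transition, the E-type cyclins Ccne1 and Ccne2 rose, and of 6 that act in G1, Cdk4 rose. Of 7 CDK inhibitors 1 rose and 1 fell, of 13 RB, E2F and DP genes 5 rose and 1 fell, and the quiescence-linked cyclin Ccng2 fell. The median log2 fold change was 0.73 in the S and G2/M set, 0.05 in the G1/S set, 0.01 in the G1 set and -0.07 over the inhibitors. Over all genes tested it was -0.0033. Within pairs 1, 2 and 3 the median of the S and G2/M set was 0.71, 0.81 and 0.76. No set was tested against another.

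**Figure D1:**
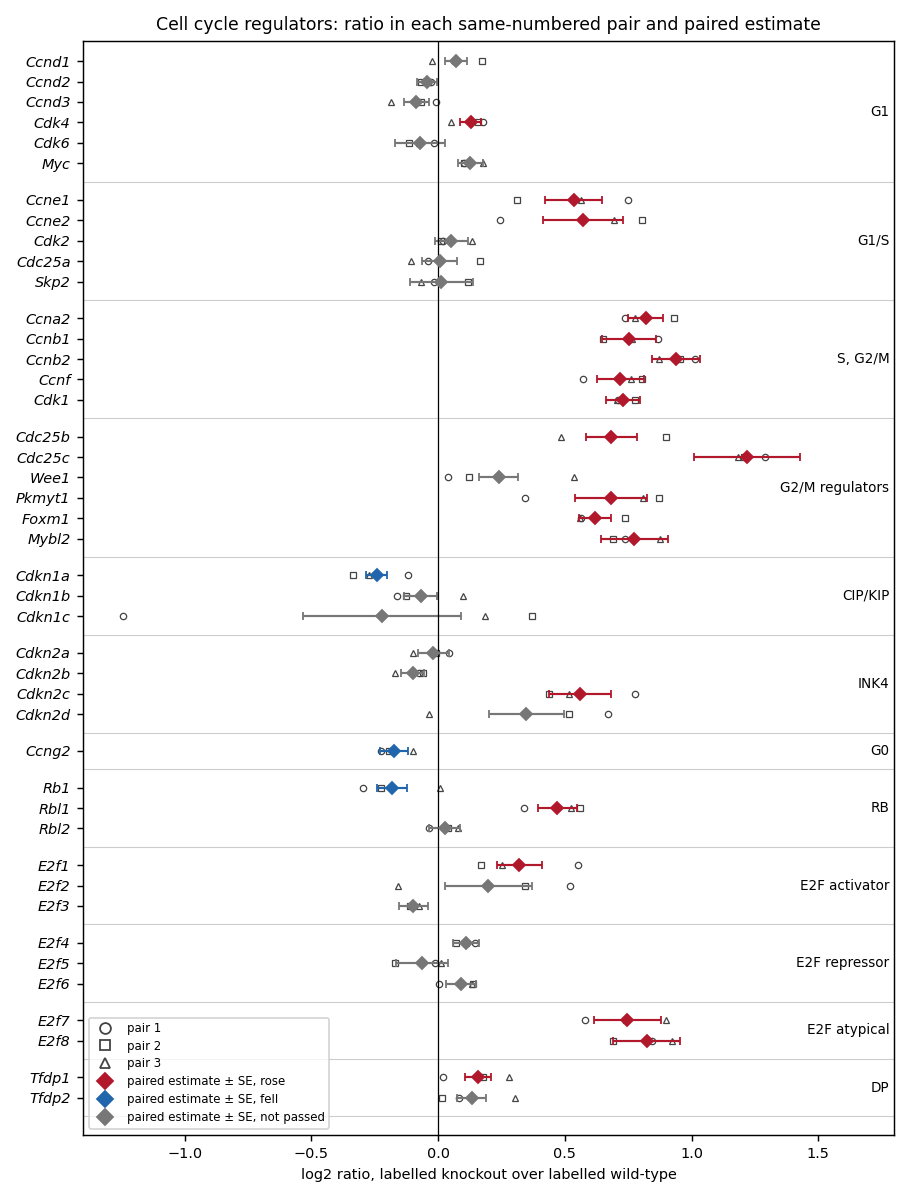
Log2 ratio of knockout-labelled over wild-type-labelled libraries for each of the 43 genes, grouped by role. Open symbols are the ratio within each same-numbered pair and diamonds the paired estimate with its standard error, coloured by call; the S and G2/M genes other than Wee1 lie at 0.34 or above in every pair, and the G1 genes lie between -0.18 and 0.18.

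Cdk1, the kinase of mitotic entry, and its cyclins rose by similar amounts. Cdk1 (GRCm38 chromosome 10, 69335146 to 69352938, minus strand) was at 28.6, 38.0 and 49.7 CPM in knockout-labelled replicates 1, 2 and 3, against 17.5, 22.2 and 30.5 CPM in wild-type-labelled replicates 1, 2 and 3; values below keep this order. The groups overlapped, since wild-type replicate 3 lay above knockout replicate 1, but the library labelled knockout was higher in each pair. The paired log2 fold change was 0.73 ± 0.066 (SE, n = 3 pairs), which is 1.66-fold, with an edgeR adjusted p of 4.42e-11, against 0.996 without the block. Cyclin B2 (Ccnb2, chromosome 9, 70407692 to 70421547, minus strand), a partner of Cdk1, was at 11.8, 18.9 and 21.4 CPM against 5.82, 9.74 and 11.7 CPM. Its lowest library labelled knockout was just above its highest library labelled wild-type, so the groups did not overlap. It rose by 0.94 ± 0.095 on the log2 scale (SE, n = 3 pairs), or 1.92-fold.

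Cyclin A2 (Ccna2, chromosome 3, 36564865 to 36572150, minus strand), which pairs with Cdk2 in S phase and later with Cdk1, was at 26.8, 38.7 and 41.5 CPM against 16.1, 20.3 and 24.2 CPM. No library labelled wild-type reached the lowest library labelled knockout, and Ccna2 rose by 0.82 ± 0.070 (SE, n = 3 pairs). Cyclin B1 (Ccnb1, chromosome 13, 100778650 to 100786570, minus strand), the main mitotic partner of Cdk1, was at 9.23, 12.7 and 16.1 CPM against 5.06, 8.08 and 9.49 CPM. Cyclin F (Ccnf, chromosome 17, 24222198 to 24251484, minus strand), a substrate-binding subunit of a ubiquitin ligase rather than a kinase partner, was at 12.4, 17.1 and 21.4 CPM against 8.35, 9.79 and 12.6 CPM. In both, knockout replicate 1 lay inside the wild-type range while each pair had the same direction, and the log2 fold changes were 0.75 ± 0.11 and 0.72 ± 0.094 (SE, n = 3 pairs).

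Promoter letters are shown for the genes of this group found in the RefSeq promoter table (GRCm38.p6), because they rose together and their promoters are textbook cases of cell cycle control. Of the 43 genes 30 matched; those that did not were Ccnd1, Ccnd2, Myc, Ccne2, Ccna2, Cdc25c, Wee1, Pkmyt1, Foxm1, Cdkn1c, Rb1, E2f4 and E2f5. Capitals mark, on either strand, E2F-like letters (any of TTCCCGC, of TTCGCGC, of TTGCCGC and of TTGGCGC), the cell cycle homology region (CHR, either TTTGAA or else TTCGAA), and the CCAAT box. Each stretch reads 5′ to 3′ along the gene and ends before the first annotated exon. The stretches are chr10:69352939-69353138 (Cdk1), chr13:100786571-100786736 (Ccnb1), chr9:70421555-70421754 (Ccnb2) and chr17:24251485-24251659 (Ccnf), all on the minus strand.
Cdk1: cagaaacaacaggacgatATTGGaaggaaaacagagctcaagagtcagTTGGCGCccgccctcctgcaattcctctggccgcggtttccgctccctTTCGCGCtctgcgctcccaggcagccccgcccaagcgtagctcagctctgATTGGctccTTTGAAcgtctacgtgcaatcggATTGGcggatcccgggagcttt
Ccnb1: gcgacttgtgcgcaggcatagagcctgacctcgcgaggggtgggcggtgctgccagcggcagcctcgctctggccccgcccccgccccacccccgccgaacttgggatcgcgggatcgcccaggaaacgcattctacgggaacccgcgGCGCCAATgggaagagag
Ccnb2: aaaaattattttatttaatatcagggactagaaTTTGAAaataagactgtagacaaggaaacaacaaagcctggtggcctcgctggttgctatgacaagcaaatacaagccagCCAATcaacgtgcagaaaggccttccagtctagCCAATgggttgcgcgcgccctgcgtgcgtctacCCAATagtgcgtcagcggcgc
Ccnf: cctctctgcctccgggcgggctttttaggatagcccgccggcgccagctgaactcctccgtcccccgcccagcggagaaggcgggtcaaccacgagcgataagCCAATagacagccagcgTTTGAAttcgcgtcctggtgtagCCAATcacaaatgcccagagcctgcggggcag
The Cdk1 stretch held E2F-like letters starting at -178 and -130 from the RefSeq start, a CHR at -71 and CCAAT boxes at -208, -80 and -48. The Ccnb2 stretch held a CHR at -167 and CCAAT boxes at -87, -54 and -21, and the Ccnf stretch a CHR at -130 between CCAAT boxes at -147 and -107. In Ccnb1 the E2F-like letters at -102 and the CCAAT box at -99 overlap and share 4 bases.

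Over the whole windows of the table, which run from 250 bases before to 50 after a start, E2F-like letters were in 9.57%, CHR letters in 19.2% and CCAAT boxes in 37.4% of all 32851 windows. The genes that rose had 16 windows, of which 8 held E2F-like letters, 5 a CHR and 8 a CCAAT box. The genes that did not pass had 20 windows, with 5, 5 and 10. The genes that fell had 3 windows, from 2 genes only (Cdkn1a and Ccng2), with 0 of each. Some genes had 2 windows. Counted by gene, E2F-like letters were in 10.9%, CHR letters in 21.7% and CCAAT boxes in 41.1% of all 27025 genes. Among the genes described here, 14 matched ones rose, and 7 held E2F-like letters, 5 a CHR and 8 a CCAAT box. Of the matched genes, 14 did not pass, with 5, 5 and 9, so CHR letters were as frequent there. These are letter matches only, and none was tested.

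**Figure D2:**
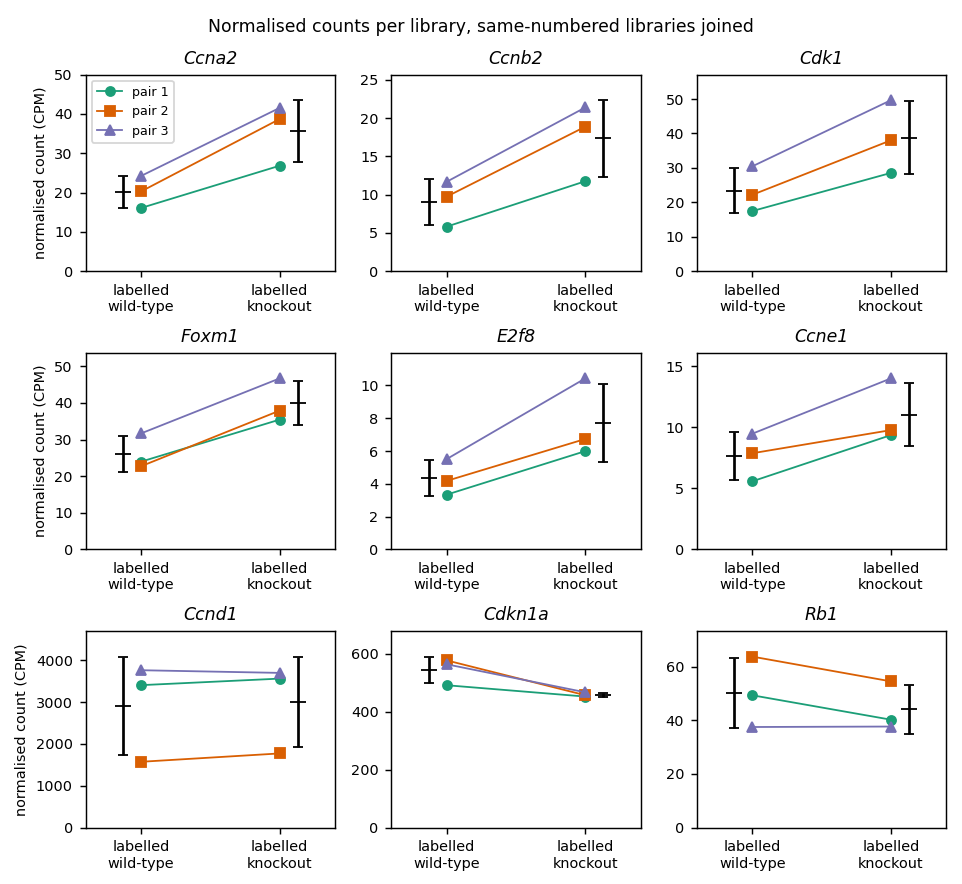
Normalised counts (CPM, vertical axes from 0) of 9 of the genes in each library, with same-numbered libraries joined; black bars are the group mean and SD (n = 3). Ccna2, Ccnb2, Cdk1, Foxm1, E2f8 and Ccne1 slope upward in every pair, Cdkn1a slopes downward in every pair, and Ccnd1 differs between replicate numbers, with the libraries numbered 2 at 1773 and 1573 CPM; Rb1 slopes downward in pairs 1 and 2.

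Regulators of Cdk1 and the late transcription factors moved with it, apart from Wee1. Cdc25c, a phosphatase that activates Cdk1, had the highest log2 fold change of the 43 genes, 1.22 ± 0.21 (SE, n = 3 pairs), from a low level of 2.57, 4.28 and 3.59 CPM against 1.05, 1.85 and 1.58 CPM, or 54 to 80 reads against 22 to 39. Cdc25b, a phosphatase of the same family, was at 11.4, 16.5 and 17.2 CPM against 7.11, 8.84 and 12.3 CPM and rose by 0.68 ± 0.10 (SE). Cdc25a, the third phosphatase and the one tied to the G1/S transition, was at 29.0, 30.4 and 29.2 CPM against 29.8, 27.1 and 31.5 CPM. Its pairs went both ways and it did not pass (0.01 ± 0.068, SE, adjusted p = 0.973). Differences between the 3 phosphatases were not tested.

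Of the kinases that restrain Cdk1, Pkmyt1 passed and Wee1 did not. Pkmyt1, the membrane-bound inhibitory kinase, was at 4.90, 6.52 and 8.58 CPM against 3.87, 3.56 and 4.90 CPM, and rose by 0.68 ± 0.14 (SE, n = 3 pairs). Knockout replicate 1 and wild-type replicate 3 were nearly equal, so the groups only just failed to overlap, and with DESeq2 it no longer passed. Wee1, the nuclear inhibitory kinase, was at 32.6, 24.8 and 44.8 CPM against 31.7, 22.8 and 30.9 CPM, with pair ratios of 0.04, 0.12 and 0.54 on the log2 scale. It did not pass (0.24 ± 0.078, adjusted p = 0.0538), it passed without pair 1 or pair 2, with scaling by relative log expression or with no filter on low counts, and without pair 3 its log2 fold change was 0.08.

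Foxm1 (chromosome 6, 128362967 to 128376146, plus strand), the forkhead factor of mitotic genes, was at 35.5, 37.9 and 46.7 CPM against 24.0, 22.7 and 31.7 CPM, and its groups did not overlap. It rose by 0.62 ± 0.065 (SE, n = 3 pairs, adjusted p = 1.86e-09). Mybl2, which encodes B-Myb, the partner of the MuvB complex in late S phase, was at 5.81, 6.74 and 10.2 CPM against 3.48, 4.18 and 5.56 CPM. It rose by 0.77 ± 0.13 (SE). Over the whole set of 43, groups did not overlap for 10 genes that were higher (5.25% of all genes tested) and 3 that were lower (4.96%), and 6 of the former are S and G2/M genes.

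At the G1/S transition the cyclins moved and their kinase did not pass. Cyclin E1 (Ccne1, chromosome 7, 38097984 to 38107534, minus strand) was at 9.37, 9.78 and 14.0 CPM against 5.58, 7.89 and 9.49 CPM, and cyclin E2 (Ccne2) was at 4.24, 4.06 and 7.18 CPM against 3.58, 2.33 and 4.44 CPM. The groups overlapped in both while every pair was higher. Ccne1 rose by 0.53 ± 0.11 and Ccne2 by 0.57 ± 0.16 (SE, n = 3 pairs); Ccne2 no longer passed without pair 2 or pair 3, and neither passed with DESeq2. Cdk2, the kinase of both, was at 33.5, 32.6 and 32.3 CPM against 33, 32.4 and 29.4 CPM, and it did not pass (0.05 ± 0.064, SE, adjusted p = 0.705). Skp2, the ubiquitin ligase subunit that targets Cdkn1b, stayed between 5.81 and 7.29 CPM in all 6 libraries and did not pass.

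Of the 6 genes that act in G1, Cdk4 alone passed, and cyclin D1 differed more between replicate numbers than between labels. Cyclin D1 (Ccnd1, chromosome 7, 144929931 to 144939925, minus strand), which couples growth factor signals to Cdk4 and Cdk6, was at 3559, 1773 and 3696 CPM against 3403, 1573 and 3760 CPM. Both libraries numbered 2, which also had the most fibroblast transcripts, were far below the other 4, and the role of these transcripts in the Ccnd1 level was not tested. The paired log2 fold change was 0.07 ± 0.042 (SE, adjusted p = 0.356). Cyclin D2 was at 801 to 969 CPM against 823 to 986 CPM and cyclin D3 at 73.5 to 84.7 CPM against 77.1 to 93.1 CPM; both were lower in 3 of 3 pairs and did not pass. Cdk6 (9.68 to 12.4 CPM against 10.2 to 13.4 CPM) and Myc, a transcription factor that promotes cyclin D and E2F expression (73.0 to 85.9 CPM against 68.1 to 75.9 CPM), did not pass either. Cdk6 was lower in 3 of 3 pairs. Myc was higher in 3 of 3, with a paired log2 fold change of 0.13 ± 0.049 (SE, edgeR adjusted p = 0.107). Cdk4 was at 181, 199 and 194 CPM against 160, 178 and 187 CPM. It rose by 0.13 ± 0.042 (SE, adjusted p = 0.0456), and it no longer passed with DESeq2, with library size alone, or without pair 1 or pair 2.

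Among the CIP/KIP inhibitors Cdkn1a fell. This gene encodes p21, an inhibitor of the cyclin-CDK complexes and a target of p53 (chromosome 17, 29090976 to 29100727, plus strand). It was at 452, 457 and 467 CPM against 492, 577 and 564 CPM, so that every library labelled knockout lay below every library labelled wild-type. The paired log2 fold change was -0.24 ± 0.042 (SE, n = 3 pairs, adjusted p = 6.19e-05), and without pairs 1, 2 or 3 Cdkn1a still passed. Cdkn1a is the gene that fell with the clearest separation, and it had 2 RefSeq promoter windows, for different starts. The stretch of the first is shown (chr17:29090776-29090975, plus strand). Which start these cells use was not tested. Neither window held any of the 3 kinds of letters. Letters of other factors, among them p53, were not searched for.
Cdkn1a: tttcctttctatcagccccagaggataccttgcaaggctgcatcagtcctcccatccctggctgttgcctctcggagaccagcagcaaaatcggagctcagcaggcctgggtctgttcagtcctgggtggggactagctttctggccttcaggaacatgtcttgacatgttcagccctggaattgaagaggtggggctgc
Cdkn1b, which encodes p27, was at 28.9 to 36.4 CPM against 30.8 to 39.8 CPM, with pairs in both directions. Cdkn1c, which encodes p57, was near the limit of measurement at 14 to 23 reads against 20 to 33, with pair ratios of -1.24, 0.37 and 0.18. Neither passed.

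The INK4 inhibitors were not alike. Cdkn2c, which encodes p18, was at 6.71, 8.88 and 9.62 CPM against 3.91, 6.56 and 6.73 CPM; the groups touched at knockout replicate 1 and wild-type replicate 3, every pair was higher, and it rose by 0.56 ± 0.12 (SE, adjusted p = 0.00141). It no longer passed with DESeq2. Cdkn2d, which encodes p19 of the INK4 family, was at 4.33, 6.52 and 6.32 CPM against 2.72, 4.56 and 6.48 CPM and did not pass (0.35 ± 0.15, adjusted p = 0.152); without pair 3 it passed. Cdkn2a, whose count joins transcripts for p16 and for the unrelated protein ARF, was at 34.7, 43.6 and 34.3 CPM against 33.7, 43.8 and 36.7 CPM and followed the replicate number, with both libraries numbered 2 the highest. Cdkn2b, which encodes p15, was at 86.2 to 91.0 CPM against 94.8 to 96.9 CPM. Its groups did not overlap, but the difference was small and did not pass (-0.10 ± 0.047, adjusted p = 0.207).

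Ccng2, an unconventional cyclin that is high in quiescent cells, was at 41.7, 46.0 and 40.1 CPM against 48.7, 52.5 and 42.9 CPM. It was lower in each pair, with overlapping groups, and fell by 0.17 ± 0.056 on the log2 scale (SE, adjusted p = 0.0417). This call was lost with DESeq2 and without pair 1 or pair 2.

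The pocket proteins, which hold E2F factors in check, split. Rbl1, which encodes p107 (chromosome 2, 157145893 to 157204534, minus strand), was at 24.6, 23.3 and 30.4 CPM against 19.5, 15.8 and 21.2 CPM without overlap, and rose by 0.47 ± 0.076 (SE, n = 3 pairs, adjusted p = 1.64e-05). Rbl2, which encodes p130, the pocket protein of quiescent cells, was at 32.3 to 37.3 CPM against 30.7 to 36.3 CPM and did not pass. Rb1 was at 40.2, 54.5 and 37.7 CPM against 49.3, 63.7 and 37.5 CPM. It fell by 0.18 ± 0.058 (SE, adjusted p = 0.0428), but pair 3 showed no such difference (0.01 on the log2 scale), and without pair 1 or pair 2, or with DESeq2, it no longer passed. Lpar6, a receptor gene whose exons overlap those of Rb1 on the opposite strand, also fell, by 0.19, and without a stated strand setting their shared reads cannot be told apart.

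Of the E2F factors, the atypical repressors moved most. E2f8 (chromosome 7, 48866429 to 48881596, minus strand) was at 6.00, 6.74 and 10.4 CPM against 3.34, 4.18 and 5.51 CPM, and E2f7 (chromosome 10, 110745439 to 110787384, plus strand) at 6.00, 7.22 and 9.33 CPM against 4.01, 4.32 and 5.0 CPM. Neither pair of groups overlapped. E2f8 rose by 0.82 ± 0.13 and E2f7 by 0.75 ± 0.13 (SE, n = 3 pairs), and both also passed with DESeq2 and without each pair. E2f1, the activator best known for S-phase entry, was at 16.8, 15.8 and 22.8 CPM against 11.5, 14.0 and 19.1 CPM. It rose by 0.32 ± 0.088 (SE, adjusted p = 0.0141), with overlapping groups, and no longer passed with DESeq2 or without pair 1. The activators E2f2 (3.28 to 4.52 CPM against 2.29 to 5.05 CPM) and E2f3 (39.7 to 40.9 CPM against 41.9 to 44.0 CPM) did not pass, although E2f3 was lower in every pair without overlap. The repressors E2f4, E2f5 and E2f6 did not pass, with log2 fold changes of 0.11, -0.06 and 0.09, and E2f4 was higher in every pair without overlap at 59.1 to 64.3 CPM against 56.2 to 58.2 CPM.

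Among the DP partners, which E2F1 to E2F6 need to bind DNA, Tfdp1 was at 81.2, 78.0 and 97.8 CPM against 80.1, 68.9 and 80.5 CPM and rose by 0.16 ± 0.051 (SE, adjusted p = 0.0395). The call was lost with DESeq2, with library size alone and without pair 2 or pair 3. Tfdp2 was higher in 3 of 3 pairs and did not pass (0.13 ± 0.058, adjusted p = 0.172). Over the 43 genes, 25 were higher and 7 lower in 3 of 3 pairs, beside 20.5% and 20.1% of all genes tested.

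Promoter stretches are shown for 3 of the E2F and pocket protein genes that rose, E2f7 (chr10:110745239-110745438, plus strand), E2f8 (chr7:48881597-48881796, minus strand) and Rbl1 (chr2:157204535-157204734, minus strand), with the same letters in capitals, because these genes encode parts of the E2F system itself.
E2f7: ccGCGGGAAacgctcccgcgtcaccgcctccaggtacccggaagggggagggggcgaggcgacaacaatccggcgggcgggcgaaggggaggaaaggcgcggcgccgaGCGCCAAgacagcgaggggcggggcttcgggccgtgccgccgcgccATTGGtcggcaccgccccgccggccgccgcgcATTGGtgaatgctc
E2f8: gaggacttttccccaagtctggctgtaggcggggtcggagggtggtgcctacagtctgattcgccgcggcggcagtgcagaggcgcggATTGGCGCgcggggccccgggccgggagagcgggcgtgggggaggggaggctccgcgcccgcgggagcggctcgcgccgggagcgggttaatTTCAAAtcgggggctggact
Rbl1: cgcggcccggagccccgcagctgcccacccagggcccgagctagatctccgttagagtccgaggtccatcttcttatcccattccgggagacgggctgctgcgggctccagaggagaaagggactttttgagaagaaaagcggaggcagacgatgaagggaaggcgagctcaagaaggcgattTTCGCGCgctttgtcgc
E2F-like letters started at -198 and -92 in E2f7, at -111 in E2f8 and at -17 in Rbl1. In E2f8 they overlap a CCAAT box that starts at -112, and a CHR on the opposite strand starts at -20. E2f1, which rose less, had a window with none of the 3 kinds of letters, and so did Mybl2, Ccne1 and Cdk4, which also rose.

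Levels per length set family members beside each other. The length joins all annotated exons of a gene, whether or not these cells use them. It was 1531 bases for Ccnb2, 8775 for Ccnd3 and 14029 for Tfdp2. The orders and shares below depend on it, and which exons were in use was not tested. On the scale of CPM per kilobase of exon, Ccnd1 was at 334 to 798 over the 6 libraries, Ccnd2 at 85.2 to 105 and Ccnd3 at 8.38 to 10.6, an order that held in every library. Ccnd1 made up 76.0% to 89.3% of the D-type cyclin total. The cyclins of later phases were below Ccnd1 and Ccnd2 per length, from Ccnb2 at 3.80 to 14.0 down to Ccne2 at 0.666 to 2.06. Per length, Ccnb2 and Ccna2 (3.94 to 10.2) lay above Ccnd3 in knockout replicates 2 and 3 and below it in the other 4 libraries. In CPM without the length, both lay below Ccnd3 in every library. The order of these later cyclins per length was Ccnb2, Ccna2, Ccne1, Ccnb1, Ccnf and Ccne2, and the range of each overlapped that of the next. Within libraries, Ccnb2 lay above Ccna2 in 5 of 6. From Ccna2 down, each lay above the next in all 6 libraries. Cdk4 (49.1 to 61.1) exceeded Cdk1 (3.54 to 10.1), Cdk2 (4.73 to 5.39) and Cdk6 (0.692 to 0.961). Cdk1 was above Cdk2 in 4 of 6 libraries, so their order was not fixed.

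Among the inhibitors, Cdkn1a was highest per length, at 127 to 162 CPM per kilobase, followed without overlap by Cdkn2b (62.0 to 69.7), Cdkn2a (28.8 to 37.4) and Cdkn1b (6.36 to 8.74). Cdkn1a made up 52.0% to 58.0% of the summed level of the 7 inhibitors, and Cdkn2c, which rose, made up 0.590% to 1.5%. Among the E2F genes E2f4 was highest (22.9 to 26.2 CPM per kilobase) and took 44.4% to 47.7% of the E2F total. The atypical E2f7 and E2f8, which rose, were among the lowest, at 0.445 to 1.04 and 0.614 to 1.92, and E2f2 lay between them with overlap. Rb1 (6.23 to 10.6) lay above Rbl2 (4.06 to 4.94), which was above Rbl1 (2.64 to 5.08) in 5 of 6 libraries. Tfdp1 took 85.4% to 87.8% of the DP total per length. In CPM the difference was smaller. The means under the knockout and wild-type labels were 85.6 and 76.5 CPM for Tfdp1 and 49.5 and 45.0 CPM for Tfdp2.

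**Figure D3:**
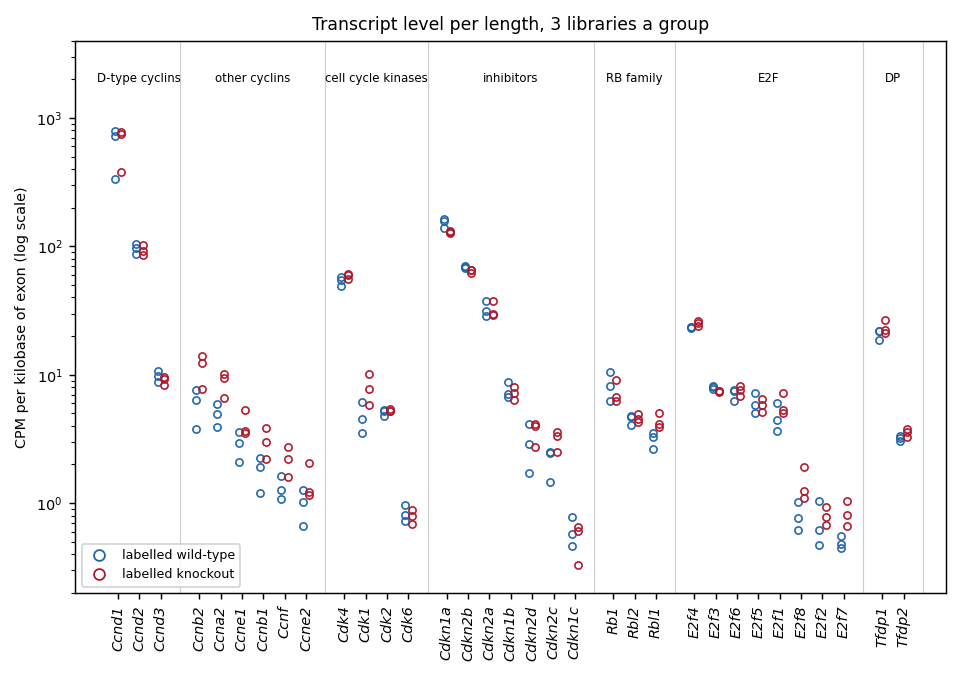
Level of cyclins, kinases, inhibitors, RB, E2F and DP genes in CPM per kilobase of exon (log scale), 3 libraries labelled wild-type and 3 labelled knockout side by side for each gene. Ccnd1 is the highest gene, the later cyclins lie between 0.666 and 14.0, and E2f4 lies above all other E2F genes.

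Other genes around this pathway were counted from lists by function. Of 24 S-phase genes that E2F factors switch on, 23 rose and 0 fell (median 0.55 on the log2 scale). Mcm5, a subunit of the replicative helicase, rose by 0.78, and the ribonucleotide reductase subunits Rrm1 and Rrm2 rose by 0.55 and 0.73. With DESeq2, 17 of the 24 passed. Of 12 mitotic kinases and partners, 9 rose and 0 fell, with a median of 0.78, among them Tpx2, the activator of Aurora A, by 0.85 and the checkpoint kinases Bub1 and Bub1b by 0.93 and 0.76. The 3 proliferation markers Mki67, Top2a and Birc5 rose by 0.95, 0.88 and 0.97.

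Of 22 ubiquitin ligase subunits and regulators of the cycle, 3 rose and 0 fell: Cdc20, the mitotic activator of the anaphase-promoting complex, by 0.74, its ubiquitin-conjugating enzyme Ube2c by 0.80 and its inhibitor Fbxo5 by 0.55. The other 19, which include the core subunits of that complex, did not pass, and the median of the list was 0.04. Of 12 MuvB, DREAM and RB cofactors, 1 rose, the histone-binding Rbbp7 by 0.14, and it no longer passed without pair 2 or pair 3, with DESeq2 or with library size alone. Of 10 further cyclins, kinases and Cks subunits tested, the CDK-binding Cks1b and Cks2 rose by 0.41 and 0.43, and Ccng1, a p53 target, fell by 0.22. Of 12 cyclins and kinases of transcription, which do not drive the cycle, 0 rose and 2 fell, Ccnl2 by 0.29 and Ccnl1 by 0.17. Without pair 2, Ccng1, Cks2 and Ccnl1 no longer passed, without pair 1 Ccnl1 did not, without pair 3 Cks2 did not, and with DESeq2 Cks2, Ccnl1 and Fbxo5 did not.

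The list of p53 and its targets, in which Cdkn1a is not counted, had 11 tested genes, of which 5 fell and 1 rose. Trp53, which encodes p53, did not pass, at 0.06 on the log2 scale. Btg2, an antiproliferative gene, fell by 0.51, and Mdm2, which marks p53 for degradation, fell by 0.27, while Gadd45a rose by 0.27. Leaving out any 1 pair left 3 lower. Of 13 mitogen response genes 0 rose and 5 fell, among them the immediate early genes Egr1 by 0.86, Fos by 0.93 and Junb by 0.46 on the log2 scale. These immediate early genes respond to handling as well as to growth factors, and their part in the cell cycle differences was not tested.

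**Figure D4:**
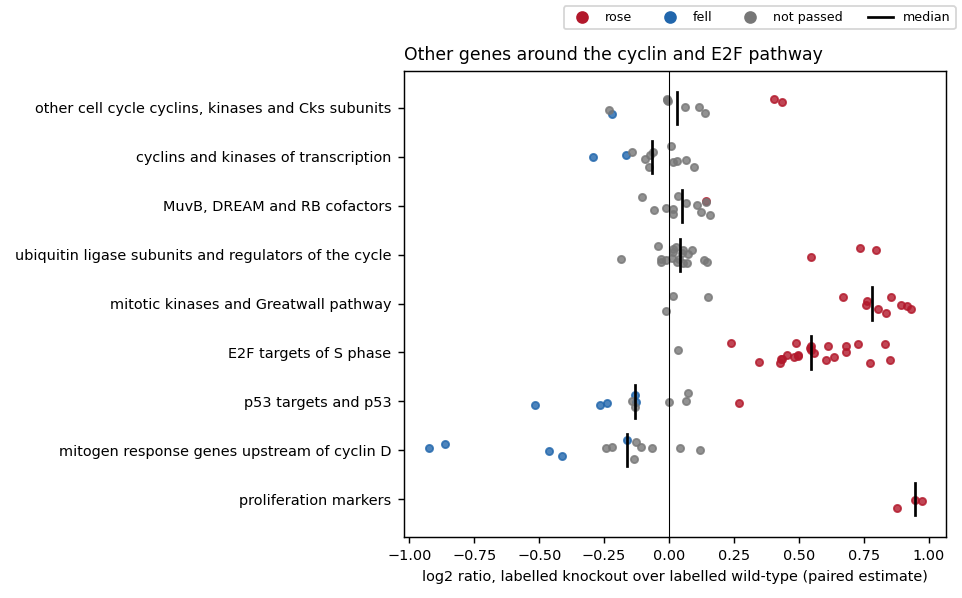
Paired log2 ratio of knockout-labelled over wild-type-labelled libraries for each tested gene of 9 lists around the pathway; points are genes coloured by call and black bars are list medians. S-phase E2F targets, mitotic kinases and proliferation markers have medians of 0.55, 0.78 and 0.95, and the other medians lie between -0.16 and 0.05.

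Some markers of endothelial cells and of other cell types passed the paired test. Of 12 endothelial markers 2 rose and 1 fell, with a median of 0.04 on the log2 scale. With DESeq2, 1 rose and 1 fell, and without pair 2, 0 rose and 1 fell. The blood markers Laptm5 and Coro1a, the only 2 of the 14 with enough reads under the filter used, rose by 0.33 and 0.32. The count of blood markers that rose was 1 with DESeq2, with library size alone, and without each of the 3 pairs in turn. Laptm5 was at 225, 110 and 203 CPM against 187, 79.4 and 167 CPM, whereas Ptprc, the pan-leukocyte marker, was at 0.334 CPM or below in every library. Their part in the cell cycle differences was not tested. Leaving out the libraries numbered 2, where fibroblast transcripts were highest, left 17 of the 43 higher and 1 lower. All 11 S and G2/M genes were then higher, since Wee1 passed. The share of all genes that passed without these libraries is not given here. Of 9 fibroblast markers tested, 1 rose and 3 fell; of 11 mural markers (contractile and pericyte genes), 0 rose and 3 fell. The mural median was -0.44 on the log2 scale, with -0.53 and -0.43 in pairs 1 and 2 but 0.20 in pair 3. With DESeq2, 1 mural and 0 fibroblast markers passed, and without pair 3 there were 6 lower in each list. Without pair 2, 2 mural and 3 fibroblast markers were lower and 0 fibroblast markers were higher. Summed mural levels were 1556 to 2055 CPM in the libraries labelled knockout and 1539 to 2424 CPM in those labelled wild-type. The exons of 12 of the 22 genes that rose or fell overlap another annotated gene, mostly on the opposite strand; 7 such neighbours were tested, and 1, Lpar6 beside Rb1, passed.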

How the data were processed

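Polyadenylated RNA of 6 samples was sequenced after preparation with either of a pair of TruSeq kits, one of them stranded, and the labels do not say which sample had which. The authors deposited raw read counts per gene symbol, not normalised; per the submitters' processing notes the tools were FastQC 0.11.8, Trim Galore 0.6.4, STAR 2.6.1d and featureCounts from Subread 1.6.4, with mm10 and GRCm38. Which gene models were counted, whether strand was used and how multi-mapping reads were treated is not given in the sources used here.

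The deposited counts were tested with edgeR 4.0.16 under R 4.3.3 (filterByExpr, TMM, robust quasi-likelihood F test, Benjamini-Hochberg over all genes tested), with limma 3.58.1 and DESeq2 1.42.0 as alternatives. All of these were also run on simulated data, with and without the block, but the test with a 1.5-fold minimum was not. The simulated counts took their spread from the paired fit, so they do not check the pairing. SE is the absolute log2 fold change over the square root of F. CPM uses TMM-scaled library sizes; levels per kilobase use the union of GENCODE M21 exons. Pair ratios are log2 ratios of CPM. The smallest p of an exact test is 0.1 for 3 against 3 libraries and 0.25 for 3 pairs, so no exact test was run. The edgeR test of each gene used a spread pooled across genes.

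The groups share the numbers 1 to 3 in the labels. Deviations from group means (log2 of CPM + 0.5) correlated at 0.797, 0.879 and 0.690 between same-numbered libraries, which was taken as pairing; the labels do not state it. The biological coefficient of variation was 0.189 without the block and 0.0383 with it. Chi-square per degree of freedom between libraries of a group was 9.66 to 36.7, so none agreed within sampling noise. The 43 genes and all lists were chosen with earlier results of these data known. Named genes were all 43, Fli1, and up to 3 per list with the smallest paired p; Lpar6 and the single markers of other cell types were named after their values were seen.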

Additional observations from a re-analysis of the deposited data

How the results depend on the processing

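Each alternative changes 1 choice. Without the block, 0 of the 43 genes were higher and 0 lower under scaling by relative log expression or library size alone, no filter on low counts, DESeq2, limma-voom, a 1.5-fold minimum, and leaving out any 1 library; the replicate block gave 19 higher and 3 lower, and 10 S and G2/M genes higher. In the paired test, no replicate block gave 0 higher and 0 lower, and 0 S and G2/M genes. DESeq2 gave 12 higher and 1 lower, and a 1.5-fold minimum gave 1 higher (Ccnb2), 0 lower and 1 S and G2/M gene. Leaving out each pair gave 17 to 18 higher, 1 to 3 lower and 10 to 11 S and G2/M genes higher. The shares of all genes that passed under these settings are not given here. The counts therefore do not show whether the 43 genes held better than other genes. Cdk4 and Tfdp1 no longer passed with library size alone, which moved the median of all genes from -0.0033 to -0.030. The cause was not tested.

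Directions turned in the following genes, of which Rb1 alone had passed in the paired test. With library size alone, Cdc25a was at -0.0217 without the block and -0.0207 with it, Skp2 at -0.0149 and -0.0143, and Rbl2 at -0.000209 and -0.000724. Leaving out 1 library, without the block, gave ranges of -0.25 to 0.32 for Ccnd1, -0.12 to 0.022 for Ccnd2, -0.16 to 0.040 for Cdk6, -0.058 to 0.054 for Cdc25a, -0.066 to 0.099 for Skp2, -0.15 to 0.048 for Cdkn1b, -0.38 to 0.054 for Cdkn1c, -0.14 to 0.089 for Cdkn2a, -0.043 to 0.073 for Rbl2, -0.058 to 0.55 for E2f2, -0.18 to 0.082 for E2f5 and -0.00033 to 0.16 for E2f6. Rb1 ranged from -0.36 to 0.019 without the block. Leaving out 1 pair gave -0.075 to 0.061 for Cdc25a, -0.045 to 0.054 for Skp2, -0.51 to 0.27 for Cdkn1c and -0.051 to 0.017 for Cdkn2a.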
